A study of Mus musculus with 12 samples.

Results

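The FGF receptors, adaptors and ligands were examined in mouse mammary tumour cells as 10 genes chosen by symbol for their role: the receptors Fgfr1, Fgfr2, Fgfr3, Fgfr4 and Fgfrl1, the adaptors Frs2 and Frs3, and the ligands Fgf2, Fgf7 and Fgf10. All 10 were present among the 55573 genes of the count table, and 7 of them were among the 13836 genes with enough counts to be tested. The other 3, Fgfr4, Fgf7 and Fgf10, are described by their counts. RNA-sequencing was performed on tumourspheres of 3 spindloid lines, A1005, A1129 and A1471, which arose from tumours of MMTV-Met mt;Trp53fl/+;Cre mice. The mice of origin thus all carried an activated Met transgene driven by the mammary MMTV promoter, and a conditional allele of the tumour suppressor Trp53. For 24 h each line received the vehicle DMSO, the Met kinase inhibitor Crizotinib at 1 µM, the FGFR kinase inhibitor PD173074 at 1 µM, or the combination of both, giving 1 library per line and treatment, 12 in all. Each line represents 1 tumour. The 3 lines were the replicates of each treatment (n = 3), while a comparison of lines rests on 4 differently treated libraries of each. The sphere medium contained basic FGF, which is the product of Fgf2, together with EGF, insulin and heparin, so FGF was supplied from outside in every library.

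FGF receptors are tyrosine kinases that bind FGF together with heparan sulphate. The activated receptor phosphorylates the membrane-anchored adaptor FRS2, which recruits GRB2, SOS and GAB1 and so passes the signal to RAS, ERK and PI3K, while Sprouty, Spred and DUSP6 act as negative feedback. In mesenchymal cells the receptors are usually spliced to forms that respond to FGF2, and in epithelial cells to forms that respond to FGF7 and FGF10, but counts per gene add these forms together and do not separate them. A kinase inhibitor acts on the protein, so transcript levels of the receptors are not a check of whether PD173074 reached its target.

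The libraries held 13031492 to 17750476 counts, and no 2 of the 12 were identical. The mesenchymal marker Vim was at 1903 to 3204 CPM (normalized counts scaled to library size). Of the other mesenchymal markers, Fn1 was at 377 to 5093 CPM, Zeb1 at 52.8 to 102 CPM and Twist1 at 44.5 to 132 CPM. Cdh2 was near 0, with 0 to 6 counts. Of the epithelial markers Cdh1 had 0 to 9 counts and Cldn7 was at 0 in every library, but Krt8 had 17 to 611 counts and Krt18 53 to 748. Of the basal markers Krt5 was at 0 and Trp63 had 0 to 229 counts. Adgre1, a macrophage marker, reached 1 count, whereas the leukocyte marker Ptprc had 174 to 339 counts in A1005 and 0 to 2 in A1129 and A1471. Cd68, the other leukocyte marker, was higher in the combination than in DMSO in each line, with 439 against 227 counts in A1005, 173 against 64 in A1129 and 109 against 75 in A1471. Its part in the results was not tested. In these bulk libraries fewer cells of a type and less RNA per cell cannot be told apart.

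Fgfr1 was by far the most abundant of the 4 kinase receptors in all 3 lines. Fgfr1 (ENSMUSG00000031565) lies on the plus strand at chr8:25513654-25575718 in mm10 and has 20 merged exons. In A1005 it had 4092 counts with DMSO, 4751 with Crizotinib, 4036 with PD173074 and 3912 with the combination. The corresponding counts were 3892, 5103, 3461 and 4814 in A1129. In A1471 they were 4148, 4081, 3451 and 3741. The lines overlapped throughout. After normalization the mean level of Fgfr1 over the 4 libraries of a line was 276 ± 53.9 CPM in A1005, 286 ± 41.7 CPM in A1129 and 277 ± 21.3 CPM in A1471 (SD, n = 4, treatments included).

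The 3 remaining kinase receptors were near the limit of detection. Fgfr3 was highest in A1005, with 19 to 41 counts per library, followed by A1129 with 6 to 19 counts and A1471 with 2 or 3 counts. Fgfr2 had 0 or 1 counts in A1005, 0 to 32 counts in A1129 and 1 to 25 counts in A1471. Fgfr4 had 0 to 2 counts in A1005, 2 to 10 in A1129 and 0 or 1 in A1471. A count of 0 allows up to 3 counts, which corresponded to 0.167 to 0.234 CPM in these libraries. This limit covers counting error only.

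To compare receptors with each other, CPM was divided by the length of the merged exons of each gene. On this scale Fgfr1 made up 98.82 to 99.36% of the summed Fgfr1 to Fgfr4 level in A1005, 98.27 to 99.41% in A1129 and 99.18 to 99.91% in A1471. The next receptor was not the same in each line. In A1005 it was Fgfr3 in all 4 libraries, at a level that Fgfr1 exceeded 84.0- to 156.1-fold. In A1129 and A1471 it was Fgfr3 with DMSO and Crizotinib and Fgfr2 with PD173074 and the combination, and Fgfr1 exceeded it 157.3- to 362-fold in A1129 and 156.5- to 1503-fold in A1471. These orders rest on few counts, such as 32 counts of Fgfr2, 19 of Fgfr3 and 10 of Fgfr4 in A1129 with the combination. Met, whose counts do not separate transgenic from endogenous transcripts, stood above Fgfr1 in every library, 9.32- to 43.9-fold per kb. The study states that amplification of the endogenous Met locus occurs in this mouse model. Its part in the level of Met was not tested.

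**Figure D1:**
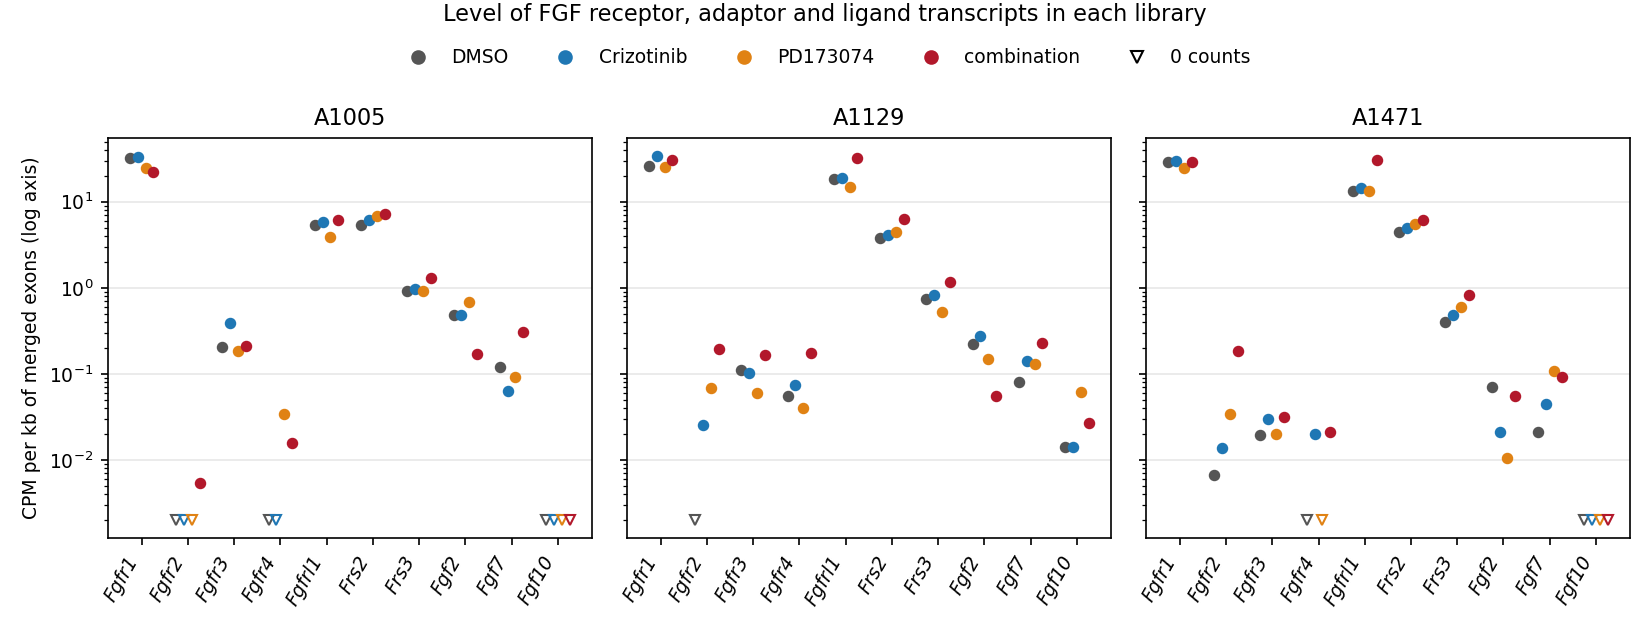
Level of each gene in CPM per kb of merged exons (log axis) in the 3 lines, with 1 point per library coloured by treatment and open triangles at the bottom for 0 counts. Fgfr1 sits at 22.0 to 34.1 CPM per kb in every library, above Fgfr2, Fgfr3 and Fgfr4, Fgfrl1 lies above it with the combination in A1129 and A1471, and Fgf10 has counts in A1129 only.

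**Figure D2:**
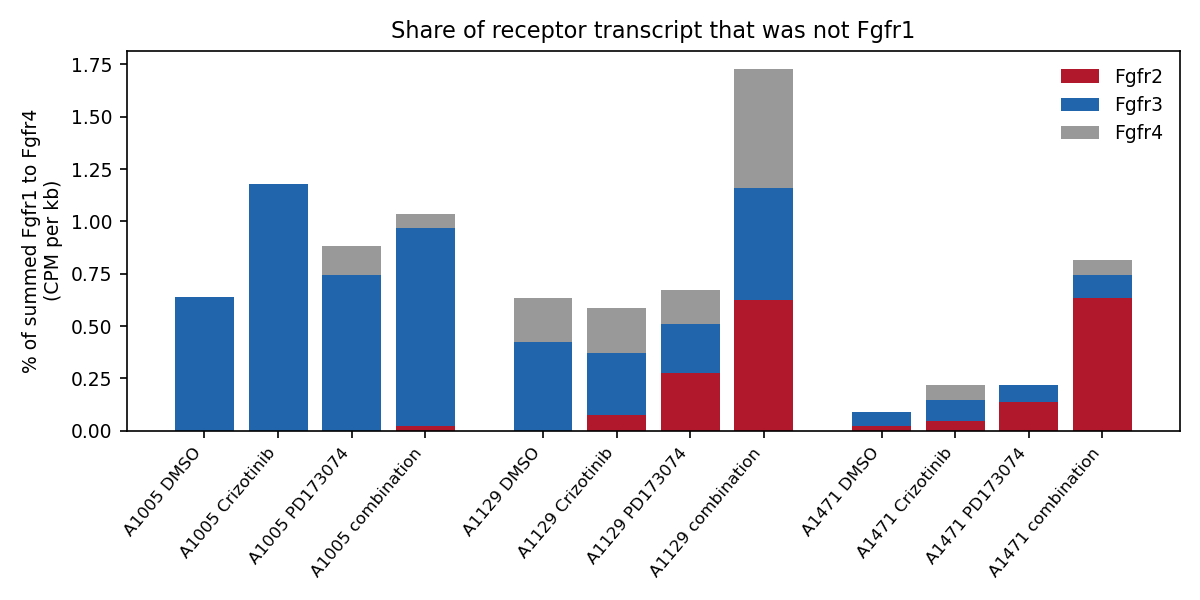
Share of the summed Fgfr1 to Fgfr4 level (CPM per kb, in %) that was Fgfr2, Fgfr3 or Fgfr4, with 1 stacked bar per library and the axis starting at 0. Fgfr3 fills most of the bars in A1005, and Fgfr2 is largest with the combination in A1129 (0.625%) and A1471 (0.634%).

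The kinase receptors are paralogs, and reads in shared sequence could be assigned to the wrong one. The longest runs of identical bases that Fgfr1 shares with Fgfr3 and with Fgfr4 are shown because a read lying within them would match both genes. They were found in the coding exons of GENCODE M21 and are written 5′ to 3′ on the gene's strand. The run shared with Fgfr3 has 26 bases (chr8:25570179-25570204 and chr5:33733894-33733919) and that with Fgfr4 has 20 bases (chr8:25558103-25558122 and chr13:55156800-55156819).
Fgfr1 and Fgfr3: gagatggagatgatgaaaatgattgg
Fgfr1 and Fgfr4: atggagaagaaactgcatgc
Between the 3 low receptors the longest runs were 14 to 20 bases. Fgfr2 (ENSMUSG00000030849, minus strand, chr7:130162451-133123350) also has an annotated transcript that reaches into Ctbp2 on the same strand and shares 314 exon bases with it. Ctbp2, a transcriptional corepressor, had 642 to 1283 counts. With DMSO and with the combination it had 981 and 1081 in A1005, 1283 and 934 in A1129, and 1000 and 642 in A1471. Whether reads of Ctbp2 were counted for Fgfr2 was not tested.

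The lines were compared in a fit of line and treatment over all 12 libraries, in which each test measures only the spread of the 4 libraries of a line. Of the 7 genes tested, 5 differed between A1129 and A1005 (57.8% of all 13836 tested genes were called), 6 between A1471 and A1005 (57.7% of all) and 2 between A1471 and A1129 (45.9% of all). Fgfr2, Fgfr3 and Fgf2 entered the test through only some of the lines, as described with their values. Fgfr1 was called in none of these comparisons, with log2 differences of 0.05 (95% interval -0.23 to 0.33), 0.01 (-0.27 to 0.29) and -0.04 (-0.32 to 0.24). Its sign turned when the libraries of 1 treatment were left out. Fgfr3 was lower in A1129 than in A1005, with a log2 difference of -1.16 ± 0.29 (SE, edgeR adjusted p = 0.00618). It was lower still in A1471, with -3.23 ± 0.38 against A1005 (adjusted p = 4.73e-05) and -2.08 ± 0.42 against A1129 (adjusted p = 0.00248). The difference between A1129 and A1005 was -0.87 (adjusted p = 0.0641) without the Crizotinib libraries. Fgfr3 reached the count minimum of the filter only in libraries of A1005 and A1129. Its calls against A1471 are therefore no independent support for a difference.

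Fgfr2, in contrast, was higher in A1129 and A1471 than in A1005, by 5.14 ± 0.67 and 4.79 ± 0.69 on the log2 scale (edgeR adjusted p = 8.12e-05 and 0.000203). These fitted values rest on 1 count in A1005 and are no measure of the fold. With DMSO Fgfr2 had 0 counts in A1005, 0 in A1129 and 1 in A1471, so no difference between untreated lines was detectable. The fitted differences rest on libraries treated with inhibitors, although the fit takes a difference between lines as shared by all treatments. Fgfr2 reached the count minimum of the filter only in libraries of A1129 and A1471, where it was high. Its calls against A1005 are therefore no independent support for a difference. The difference between A1471 and A1129 was -0.36 (95% interval -1.30 to 0.59, adjusted p = 0.499). Fgfrl1 encodes a receptor that binds FGF but lacks the kinase domain, and it followed the same order, with 179 to 305 counts in A1005, 570 to 1426 in A1129 and 518 to 1120 in A1471. The counts of A1005 stayed below those of the other lines. The log2 difference from A1005 was 1.94 ± 0.15 in A1129 and 1.69 ± 0.15 in A1471 (adjusted p = 2.47e-06 and 8.52e-06), and A1471 and A1129 differed by -0.26 (95% interval -0.61 to 0.10, adjusted p = 0.171). Without the combination libraries this difference was -0.33 (adjusted p = 0.0164).

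The adaptors differed less between lines. Frs2 was lower than in A1005, with log2 differences of -0.47 ± 0.09 in A1129 and -0.28 ± 0.09 in A1471 (edgeR adjusted p = 0.00112 and 0.0196). The difference in A1471 lost its call without the DMSO, the Crizotinib or the PD173074 libraries, with log2 differences of -0.28, -0.28 and -0.25 (adjusted p = 0.0954, 0.0871 and 0.0970). Between A1471 and A1129 the difference in Frs2 was 0.19 (adjusted p = 0.114), and 0.27 (adjusted p = 0.00727) without the combination libraries. Frs3 was lower in A1471 than in A1005 (-0.85 ± 0.21, adjusted p = 0.00542). Fgf2 was highest in A1005, with log2 differences from it of -1.39 ± 0.41 in A1129 and -3.43 ± 0.52 in A1471 (adjusted p = 0.0137 and 0.000264), and A1471 was also below A1129 (-2.05 ± 0.57, adjusted p = 0.0134). Without the PD173074 libraries the value for A1129 against A1005 was -1.08 (adjusted p = 0.0714), and without the Crizotinib libraries that for A1471 against A1129 was -1.54 (adjusted p = 0.100). Fgf2 reached the count minimum of the filter only in libraries of A1005 and A1129, so its calls against A1471 are no independent support.

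What followed FGFR kinase inhibition was asked both with Met kinase uninhibited (PD173074 against DMSO) and with Met inhibited (combination against Crizotinib), in comparisons that share no library. In the unpaired edgeR fit, the design of the study, 0 of 7 genes were called with PD173074 against DMSO, where 0% of all genes were called and 0 of the 7 had an unadjusted p under 0.05. In the combination against Crizotinib 0 of 7 were called where 13.2% of all genes were, and against DMSO 0 of 7 where 14.4% were, with 0 and 2 of the 7 at an unadjusted p under 0.05. DESeq2 without the block called 0, 0 and 1 of the 10 genes in these 3 comparisons, beside 27, 2860 and 2948 of 28122 genes. Libraries of the same line deviated together, so the line was also fitted as a block. With the block 0 of 7 genes were called with PD173074 against DMSO (2.14% of all genes, with 2 of the 7 at an unadjusted p under 0.05, and 0 of 10 in DESeq2). In the combination 3 of 7 were called against Crizotinib (53.4% of all genes) and 4 of 7 against DMSO (54.8% of all genes). The last 2 comparisons share the combination libraries. All of these genes were higher in the combination, where 27.4% and 28.6% of all genes were called higher. They include Fgfr2, which entered the test through the libraries in which it was high, as described with its values.

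**Figure D3:**
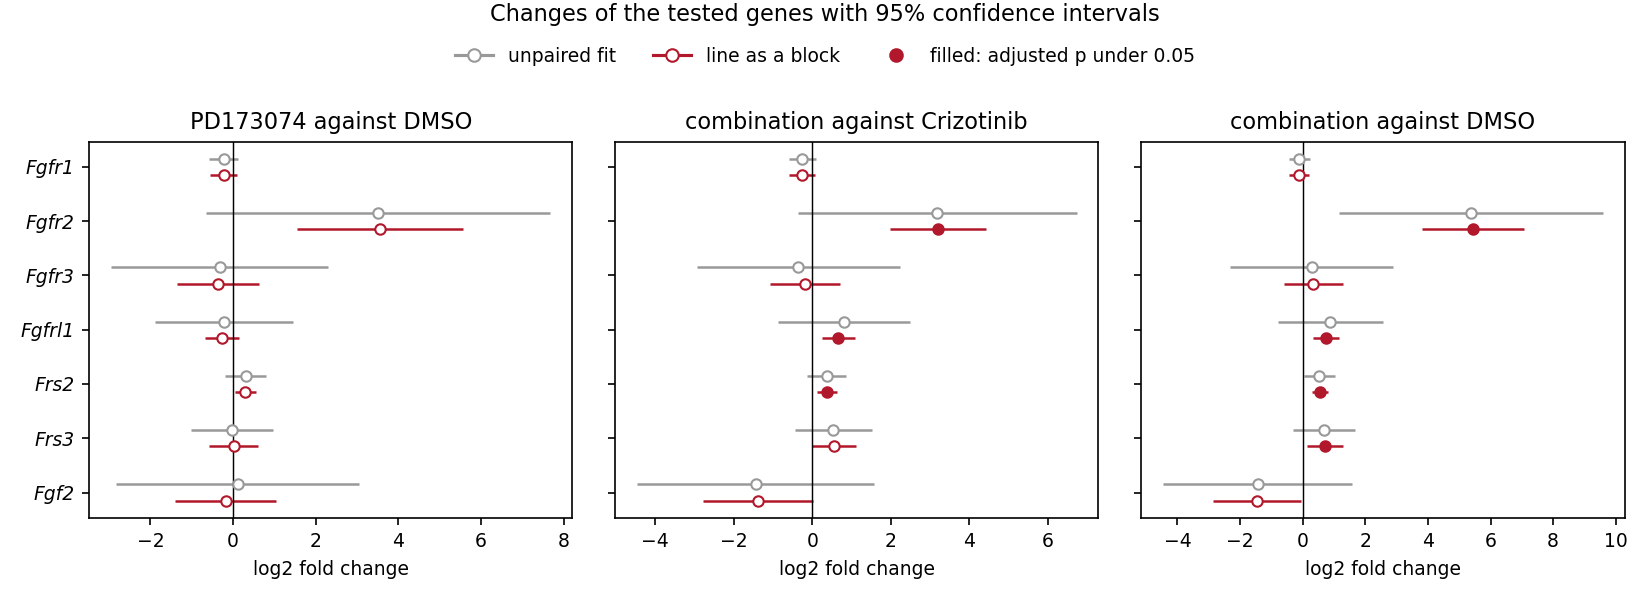
Log2 fold changes of the 7 tested genes (x axes) with 95% confidence intervals, from the unpaired fit (grey) and the fit with the line as a block (red), with filled points for an adjusted p under 0.05. No point is filled for PD173074 against DMSO, and the intervals of Fgfr1 span 0 in each panel.

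Fgfr1 did not change past the threshold under any treatment. Its level was 287 ± 31.7 CPM with DMSO, 318 ± 22.5 CPM with Crizotinib, 246 ± 1.88 CPM with PD173074 and 267 ± 44.1 CPM with the combination (SD, n = 3). With PD173074 it was lower than with DMSO in 3 of 3 lines, and the 3 libraries lay between 243.9 and 247.7 CPM against 256.0 to 319.4 CPM with DMSO, without overlap. The log2 fold change was -0.23 ± 0.15 (unpaired, adjusted p = 1; -0.23 ± 0.13, adjusted p = 0.445 with the block). In the combination against Crizotinib it was again lower in 3 of 3 lines, with a log2 fold change of -0.25 ± 0.15 (adjusted p = 0.310, or 0.128 with the block). Against DMSO the combination gave -0.11 ± 0.15 (95% interval -0.45 to 0.24, adjusted p = 0.711), with A1005 at -0.55, A1129 at 0.24 and A1471 at -0.02, and the sign turned to 0.12 without A1005. With Crizotinib alone the change was 0.15 ± 0.15 (adjusted p = 1), in a comparison in which 0 of 7 genes and 0% of all genes were called with or without the block (0 of 7 at an unadjusted p under 0.05 without it, 1 with it, and 0 genes of the 10 in DESeq2).

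Fgfr2 was close to 0 with DMSO and had more counts under inhibition in 2 of the 3 lines. In A1129 it had 0 counts with DMSO, 4 with Crizotinib, 10 with PD173074 and 32 with the combination. In A1471 it had 1, 2, 5 and 25 counts in the same order. In A1005 it had 0, 0, 0 and 1 counts, so that any level in that line lay below the limit of 3 counts. The order of the treatments was thus the same in A1129 and A1471, and the combination libraries of these lines reached 2.01 and 1.89 CPM. Set against the floor of 3 counts per library, Fgfr2 in A1129 was 10.2-fold higher with the combination than with DMSO, and 3.63-fold higher with PD173074. The lower 95% counting limits of the ratios to DMSO were 7.80 and 2.44. In A1471, where DMSO had 1 count, the ratio with the combination was 27.3 (95% counting interval 4.47 to 1121). Summed over the lines, there were 58 counts with the combination and 1 with DMSO, a ratio of 52.2 (counting interval 9.01 to 2097). The intervals cover counting error only.

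The fitted log2 fold change of Fgfr2 in the combination was 5.37 ± 1.82 against DMSO (unpaired edgeR adjusted p = 0.0798) and 5.44 ± 0.67 with the block (adjusted p = 0.000112). The corresponding values against Crizotinib were 3.19 ± 1.53 (adjusted p = 0.206) and 3.20 ± 0.50 (adjusted p = 0.000485). Fgfr2 reached the count minimum of the filter in 3 libraries, namely A1129 with PD173074 and A1129 and A1471 with the combination. It was therefore tested because of the libraries in which it was high, and its calls are no independent support for a rise. The value against DMSO depends on the prior count, since DMSO held 1 count in all. Without A1005 the change against DMSO was called in the unpaired fit as well (5.53, adjusted p = 0.0198). Without A1129 Fgfr2 had too few counts to be tested. With PD173074 alone the log2 fold change was 3.51 ± 1.81 (adjusted p = 1), and 3.55 ± 0.82 with the block (adjusted p = 0.0568). The latter passed only when the filter on low counts was dropped (3.55, adjusted p = 0.0372). Against PD173074 the combination was higher by 1.87 ± 1.42 (unpaired, adjusted p = 0.564) and 1.89 ± 0.43 (block, adjusted p = 0.00703), the latter being 1.55 (adjusted p = 0.110) without A1471. Fgfr2 was among 3 of 7 genes called in that comparison with the block, where 39.8% of all genes were called and 19.6% were called higher, against 0 of 7 and 4.77% of all genes without it (0 of 7 at an unadjusted p under 0.05, and 0 of 10 in DESeq2).

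Of the remaining kinase receptors, neither showed a change past the threshold. Fgfr3 had 33 counts with DMSO, 30 with PD173074, 55 with Crizotinib and 49 with the combination, summed over the lines. The unpaired change on the log2 scale was -0.32 (95% interval -2.95 to 2.30) with PD173074 against DMSO and 0.29 (-2.32 to 2.89) in the combination against DMSO (edgeR adjusted p = 1 and 0.910). In the combination against Crizotinib it was -0.35 (adjusted p = 0.887), turning to 0.59 without A1005. Fgfr4 had 3 counts with DMSO, 4 with PD173074, 5 with Crizotinib and 12 with the combination, 10 of the last in A1129. Its ratio in the combination to DMSO was 3.60, with a counting interval of 0.972 to 19.9, so a change was not detectable at this depth.

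**Figure D4:**
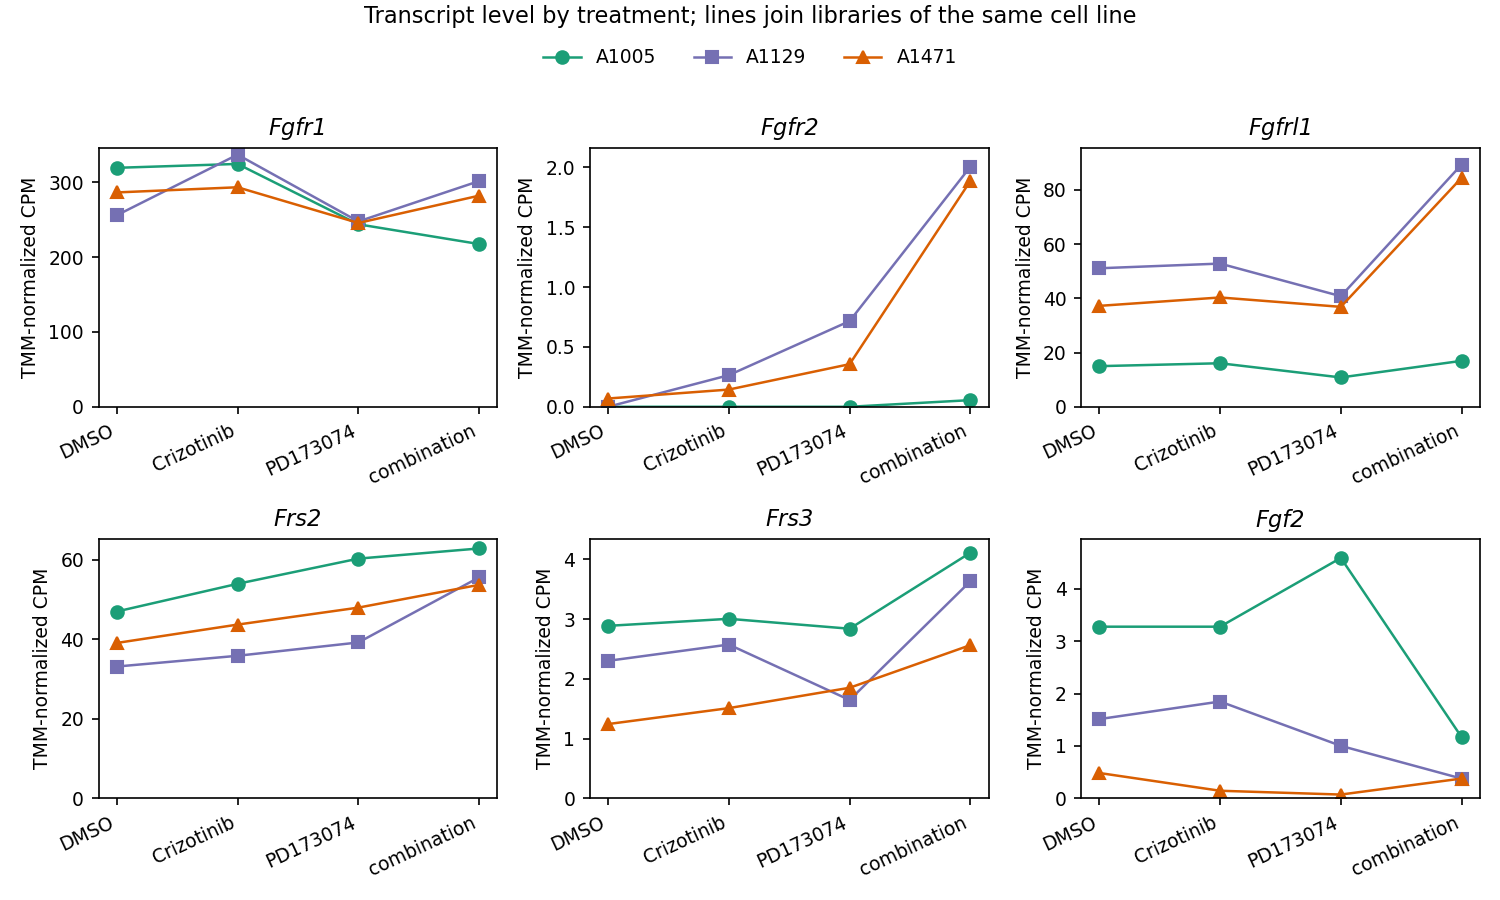
TMM-normalized CPM of 6 genes (y axes, from 0) by treatment, with the 4 libraries of each line joined. Fgfr2 and Fgfrl1 climb with the combination in A1129 and A1471, Frs2 is highest with the combination in all 3 lines, and Fgf2 is lowest there in A1005 and A1129.

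Fgfrl1 (ENSMUSG00000008090, plus strand, chr5:108692382-108706924) encodes the receptor without a kinase domain. Per kb of merged exons it was below Fgfr1 in 10 of the 12 libraries and above it with the combination in A1129 (32.1 against 30.6 CPM per kb) and A1471 (30.4 against 28.6 CPM per kb). With the combination it reached 16.9 CPM in A1005, 89.4 CPM in A1129 and 84.5 CPM in A1471. With DMSO it was at 14.99, 51.1 and 37.2 CPM, with Crizotinib at 16.1, 52.8 and 40.3 CPM, and with PD173074 at 10.8, 40.8 and 36.9 CPM. The combination was therefore the highest library of each line, by little in A1005 and by more in A1129 and A1471, and the groups overlapped because the lines differed. With the block Fgfrl1 rose in the combination by 0.76 ± 0.17 on the log2 scale against DMSO (edgeR adjusted p = 0.00386), by 0.67 ± 0.17 against Crizotinib (adjusted p = 0.00755) and by 1.02 ± 0.17 against PD173074 (adjusted p = 0.00150). The unpaired values were 0.88 ± 0.73, 0.80 ± 0.73 and 1.11 ± 0.73 (adjusted p = 0.479, 0.535 and 0.493). PD173074 alone gave -0.22 ± 0.73 (adjusted p = 1, or 0.501 with the block), lower in 3 of 3 lines. Against DMSO the call with the block was lost without A1129 (0.74, adjusted p = 0.0608) and without A1471 (0.54, adjusted p = 0.0732), and against Crizotinib without A1129 (0.63, adjusted p = 0.0909) and without A1471 (0.47, adjusted p = 0.107). Without A1005 the unpaired fit called it as well, at 0.99, 0.91 and 1.17 in the same order (adjusted p = 0.0332, 0.0432 and 0.0412).

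The effect of FGFR inhibition on Fgfrl1 was compared with and without Crizotinib. The combination exceeded the sum of both inhibitors by 0.93 ± 0.24 on the log2 scale with the block (edgeR adjusted p = 0.0292) and by 1.03 ± 1.03 without it (adjusted p = 0.939). Fgfrl1 was the 1 gene of 7 called in this comparison with the block, where 16.2% of all genes were called and 5.46% were called higher, and without it 0 of 7 and 0.918% of all genes were called (0 of 7 at an unadjusted p under 0.05, and 0 of 10 in DESeq2). The difference was 0.86 (adjusted p = 0.227) without A1129 and 0.85 (adjusted p = 0.160) without A1471.

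Frs2, the adaptor that links the receptors to GRB2 and SOS, rose in the combination. Frs2 (ENSMUSG00000020170, minus strand, chr10:117069427-117148534) was at 47.0 CPM in A1005, 33.1 CPM in A1129 and 39.1 CPM in A1471 with DMSO. Crizotinib gave 54.0, 35.9 and 43.7 CPM, PD173074 gave 60.3, 39.2 and 48.0 CPM, and the combination gave 62.9, 55.6 and 53.7 CPM. In each of the 3 lines the order was DMSO, Crizotinib, PD173074 and combination, and the combination libraries lay above every DMSO library. With the block the log2 fold change of the combination was 0.55 ± 0.10 against DMSO (edgeR adjusted p = 0.00145) and 0.39 ± 0.10 against Crizotinib (adjusted p = 0.00957), and the unpaired values were 0.53 ± 0.21 and 0.37 ± 0.21 (adjusted p = 0.130 and 0.299). The call against DMSO was kept without each line in turn, at 0.45 to 0.62. The call against Crizotinib was lost without A1129 (0.27, adjusted p = 0.0791) and without A1471 (0.45, adjusted p = 0.0598). PD173074 alone gave 0.31 ± 0.21 (adjusted p = 1, or 0.186 with the block), higher in 3 of 3 lines, and the combination against PD173074 gave 0.22 ± 0.21 (adjusted p = 0.670, or 0.0823 with the block).

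Frs3, the paralogous adaptor, was scarcer than Frs2. Per kb of merged exons Frs2 exceeded it 4.98- to 11.2-fold. With the combination Frs3 had 74 counts in A1005, 58 in A1129 and 34 in A1471, against 37, 35 and 18 with DMSO, 44, 39 and 21 with Crizotinib, and 47, 23 and 26 with PD173074. In CPM the combination was the highest library of each line. With the block the log2 fold change was 0.71 ± 0.24 against DMSO (edgeR adjusted p = 0.0271), 0.70 ± 0.24 against PD173074 (adjusted p = 0.0392) and 0.56 ± 0.23 against Crizotinib (adjusted p = 0.0678). Unpaired, the value against DMSO was 0.68 ± 0.43 (adjusted p = 0.338). Neither call held without A1005, A1129 or A1471, at 0.83, 0.74 and 0.60 against DMSO (adjusted p = 0.0820, 0.0754 and 0.133) and 0.80, 0.50 and 0.80 against PD173074 (adjusted p = 0.115, 0.229 and 0.0867), nor in DESeq2 with the block (0.74 and 0.72, adjusted p = 0.0610 and 0.0674). Frs3 shares 509 exon bases with Frs3os on the opposite strand, which had 0 or 1 counts, and 69 with Tomm6os on its own strand, which had 11 to 27 counts.

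The promoters of Fgfrl1, Frs2 and Fgfr2 are shown because these were the genes called in the combination against both DMSO and Crizotinib with the block. RefSeq windows of GRCm38.p6, from 250 bases before to 50 after the annotated start, were on hand for 9 of the 10 genes. There was no entry for Fgfr1. They were searched on both strands for CCGGAAGT, a core bound by ETS factors, and TGANTCA, a site bound by AP-1. CCGGAAGT was in the windows of Fgfrl1 (chr5:108693979-108694278, plus strand, beginning 48 bases before the start) and Frs2 (chr10:117148425-117148724, minus strand, 62 bases before the start), where it is in capitals, and in none of the other 7 genes, including Fgfr2 (chr7:130266759-130267058, minus strand) and Frs3. It was in 3.89% of all 32851 windows. TGANTCA was in none of the 9 genes and in 7.81% of all windows. A match of letters does not show binding.
Fgfrl1: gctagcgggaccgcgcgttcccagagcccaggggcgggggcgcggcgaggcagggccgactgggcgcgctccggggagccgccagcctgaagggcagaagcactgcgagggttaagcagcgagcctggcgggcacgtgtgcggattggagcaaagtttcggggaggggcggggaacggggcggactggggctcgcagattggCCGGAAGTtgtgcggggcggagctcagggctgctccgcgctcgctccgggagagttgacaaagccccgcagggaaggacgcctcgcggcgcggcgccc
Frs2: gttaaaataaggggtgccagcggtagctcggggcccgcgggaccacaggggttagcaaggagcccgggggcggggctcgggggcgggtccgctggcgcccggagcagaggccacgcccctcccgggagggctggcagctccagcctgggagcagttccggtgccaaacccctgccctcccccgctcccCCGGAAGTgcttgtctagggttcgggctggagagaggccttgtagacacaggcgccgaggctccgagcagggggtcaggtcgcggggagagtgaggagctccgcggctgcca
Fgfr2: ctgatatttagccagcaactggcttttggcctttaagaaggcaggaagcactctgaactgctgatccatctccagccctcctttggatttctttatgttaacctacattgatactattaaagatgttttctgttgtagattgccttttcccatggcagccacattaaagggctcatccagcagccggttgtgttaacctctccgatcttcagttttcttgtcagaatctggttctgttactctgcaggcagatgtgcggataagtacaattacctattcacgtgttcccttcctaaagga

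Transcripts of the ligands were scarce. Fgf2 (ENSMUSG00000037225, plus strand, chr3:37348346-37410108) had 42 counts in A1005, 23 in A1129 and 7 in A1471 with DMSO. With Crizotinib it had 48, 28 and 2 counts, with PD173074 76, 14 and 1, and with the combination 21, 6 and 5. The combination was the lowest library of A1005 and A1129 but not of A1471, where all values were near the floor. The unpaired log2 fold change of the combination was -1.43 ± 1.31 against DMSO and -1.44 ± 1.31 against Crizotinib (adjusted p = 0.528 and 0.538). With the block it was -1.47 ± 0.57 against DMSO (edgeR adjusted p = 0.0504) and -1.38 ± 0.57 against Crizotinib (adjusted p = 0.0630), so neither passed. With the block both were called without A1471 (-1.68, adjusted p = 0.0261, and -1.82, adjusted p = 0.0212) and without the filter on low counts (-1.49, adjusted p = 0.0116, and -1.41, adjusted p = 0.0175). Summed counts were 72 with DMSO and 32 with the combination, a ratio of 0.400 (counting interval 0.255 to 0.615). That interval covers counting error only and not the spread between lines, and A1005 held 42 of the 72 counts with DMSO. PD173074 alone gave -0.18 (95% interval -1.40 to 1.04) with the block and 0.11 without it. Fgf2 shares 640 exon bases with Nudt6 on the opposite strand, which had 61 to 138 counts, and whether strand was used in counting is not given in the sources used here.

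Fgf7, an epithelial growth factor usually made by fibroblasts, had 5, 4 and 1 counts with DMSO in A1005, A1129 and A1471, 3, 7 and 2 with Crizotinib, 5, 6 and 5 with PD173074, and 18, 12 and 4 with the combination. Summed over lines the combination had 34 counts against 10 with DMSO, a ratio of 3.06 (counting interval 1.48 to 6.95). That interval covers counting error only and not the spread between lines. Fgf7 did not pass the filter on low counts, and with the block but no filter it was 1.49 ± 0.59 higher on the log2 scale (edgeR adjusted p = 0.0605). Fgf10, a ligand of the same subfamily, had 0 counts in every library of A1005 and A1471 and 1 to 4 in A1129. Of the 19 other FGF ligands in the table only Fgf11 and Fgf18 had enough counts to be tested. Neither was called in the unpaired fit. Fgf18 rose in the combination with the block by 2.23 ± 0.50 against DMSO (adjusted p = 0.00358, or 2.05 and adjusted p = 0.0511 without A1471), from 5, 6 and 2 counts to 9, 52 and 14. With DMSO and with Crizotinib (mean 0.202 CPM) Fgf18 lay below the filter's minimum of 10 counts. It was therefore tested through libraries in which it was higher, and its calls are no independent support for a rise. Against Crizotinib the block gave 2.82 for Fgf18 (adjusted p = 0.00136) and -1.26 for Fgf11 (adjusted p = 0.0490). The latter was -1.22 without A1129 and -0.70 without A1471 (adjusted p = 0.169 and 0.424), and -1.21 in DESeq2 (adjusted p = 0.154). With the combination (mean 0.404 CPM) Fgf11 lay below the filter's minimum, against means of 1.07 CPM with Crizotinib and 0.994 CPM with DMSO. Fgf11 was therefore tested through libraries in which it was higher, and its call is no independent support for a fall.

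The genes downstream of the receptors were followed in lists whose members were chosen by known function. Earlier results of these data were known at that time, so counts over the lists are no independent test. Of 12 feedback and target genes, 9 fell in the combination against DMSO and 9 against Crizotinib in the unpaired fit, where 8.28% and 7.78% of all genes were called lower, and 0 fell with PD173074 against DMSO. The median log2 fold changes were -2.60, -2.75 and -0.66, beside 0.02, 0.02 and 0.00 over all genes. The largest falls against DMSO on the log2 scale were in Spry4, a Sprouty inhibitor of the pathway, at -5.98 (adjusted p = 0.00343), Dusp6, a phosphatase of ERK, at -5.03 (adjusted p = 0.000486), and Etv5, an ETS factor induced by FGF, at -4.99 (adjusted p = 4.30e-05). The call of Spry4 was lost without A1471 (-5.50, adjusted p = 0.122), and the 9 falling genes became 5 without A1129 and 2 without A1471 in both comparisons. With the block 10 fell against DMSO and 9 against Crizotinib (26.2% and 26.0% of all genes were called lower), and 1, Il17rd, rose in both, by 2.38 against DMSO. Il17rd encodes an antagonist of FGF signalling and is singled out here after its values were seen. With PD173074 alone and the block 5 of the 12 fell where 0.520% of all genes were called lower, the largest falls being in Spry4, Dusp6 and Etv5 (-1.09 each). This count was 2 without A1005, 3 without A1129, 0 without A1471 and 8 without the filter on low counts. Dusp6 went from 225.4, 204.1 and 118.1 CPM with DMSO in A1005, A1129 and A1471 to 104.4, 103.8 and 51.7 CPM with PD173074 and to 9.50, 4.01 and 3.17 CPM with the combination.

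**Figure D5:**
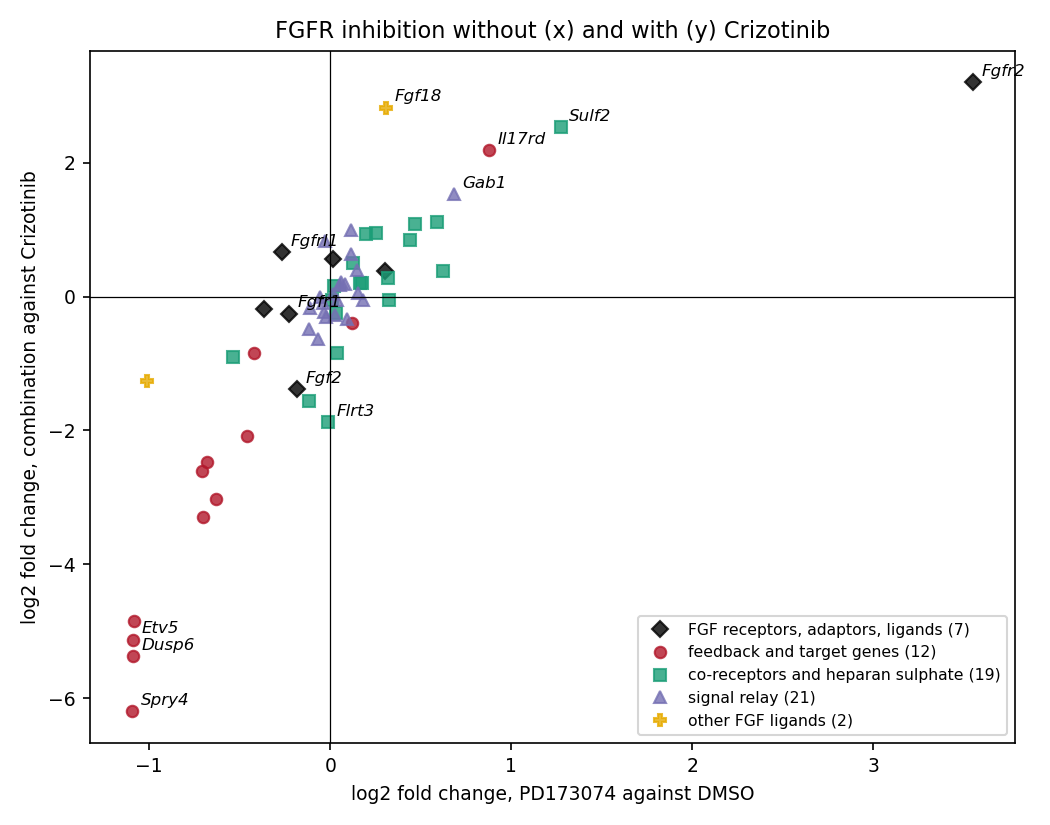
Log2 fold changes with the line as a block for PD173074 against DMSO (x axis) and for the combination against Crizotinib (y axis), which share no library, with 1 point per tested gene and the number of genes of each list in the key. Feedback and target genes reach -6.19 on the y axis and -1.09 on the x axis, while Fgfr1 lies near the origin and Fgfr2 at the upper right.

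Among the 27 genes for co-receptors and heparan sulphate, 19 were tested. In the combination against DMSO 1 rose and 1 fell without the block (14.4% of all genes were called), and 9 rose and 3 fell with it (28.6% and 26.2% of all genes). The largest rise with the block was in Sulf2, which removes sulphate groups from heparan sulphate, at 2.50 ± 0.25 (edgeR adjusted p = 3.57e-05), and the largest fall was in Flrt3, a membrane protein that binds FGF receptors, at -1.52 ± 0.25 (adjusted p = 0.000615). Sulf2 also rose with PD173074 alone with the block, by 1.27 ± 0.24 (adjusted p = 0.0265), as did Ext1, which elongates heparan sulphate chains, by 0.63 ± 0.11 (adjusted p = 0.0188). Neither was called without A1471 (1.23, adjusted p = 0.334, and 0.54, adjusted p = 0.204), Sulf2 was not called without A1129 (1.27, adjusted p = 0.124), and Ext1 was not called without A1005 (0.65, adjusted p = 0.118). Of the 21 signal relay genes, Gab1, the docking protein downstream of FRS2 and Met, was the 1 gene that rose without the block, by 1.81 on the log2 scale (adjusted p = 0.0149) against DMSO, and 0 fell. It lost the call without A1129 (1.70, adjusted p = 0.0867) and without A1471 (1.77, adjusted p = 0.211). With the block 5 of the 21 rose and 5 fell, beside 28.6% and 26.2% of all genes. Met itself rose with PD173074 alone in the fit with the block, by 0.67 ± 0.15 (adjusted p = 0.0453), a call lost without each line in turn (0.61 to 0.77, adjusted p = 0.0684 to 0.301), while the unpaired value was 0.64 ± 0.44 (adjusted p = 1). With the block Met was also higher in the combination than with Crizotinib (0.43 ± 0.14, adjusted p = 0.0277) and lower than with PD173074 (-0.42 ± 0.15, adjusted p = 0.0429), with unpaired adjusted p = 0.567 and 0.772. The call against Crizotinib was lost without A1005 (0.50, adjusted p = 0.0824) and A1129 (0.33, adjusted p = 0.0949), and that against PD173074 without A1005 (-0.38, adjusted p = 0.196) and A1471 (-0.23, adjusted p = 0.300). Esrp1, a splicing factor that favours the epithelial receptor forms, was at 0 counts in all 12 libraries. Esrp2, the other such regulator followed, was present, at 0.995 ± 1.59 CPM with DMSO and 2.50 ± 3.40 CPM with the combination (SD, n = 3). Its log2 fold change between these was 1.314 unpaired and 1.455 with the block, called in neither.

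For Fgfr1 and for each gene called in a comparison of treatments, the gene whose log2 CPM followed it most closely over the 12 libraries is given as a description. The libraries share lines and treatments, so high values are common. For Fgfr1 the most alike gene of 9223 was Ctnnal1 (Pearson r = 0.778). For Fgfr2 it was Wdfy3 (0.960), for Fgfrl1 it was Gipc1 (0.981), for Frs2 it was Vps50 (0.970) and for Frs3 it was Glrx2 (0.978). The value for Fgfr1 was below those of the others. Fgfr1 varied little, from 217.5 to 337 CPM over the 12 libraries, and the others were listed because they were called. The part of this in its lower value was not tested.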

How the data were processed

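RNA-sequencing counts of 12 tumoursphere libraries (3 lines, 4 treatments) were analysed. The deposited values are unnormalized counts of reads for each gene, for which no filter was applied, and the submitters' processing notes name bcl2fastq, STAR, HTSeq and mm10. The annotation release and strand setting are not given in the sources used here. Gene coordinates and merged exon lengths were taken from GENCODE M21, and promoter windows from RefSeq (GRCm38.p6). Line and treatment came from the labels.

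The edgeR package (4.0.16, R 4.3.3) was used for filterByExpr (at least 10 counts, total of 15), for TMM normalization and for quasi-likelihood tests, with Benjamini-Hochberg adjustment over 13836 genes and a threshold of 0.05. The treatment fit was unpaired, as in the study, with 8 residual degrees of freedom. Libraries of the same line come from the same cell line, and their deviations from the treatment means correlated at 0.766 to 0.962 over 18 pairs (-0.663 to -0.0472 over 36 pairs of different lines), so the fit with the line as a block is given where it changes a call. Lines were compared in a fit of line and treatment. Unpaired p-values measure the spread between these 3 lines. With the block they measure the spread of the libraries that remains after line and treatment are fitted. P-values between lines measure this remaining spread among the 4 libraries of a line. Standard errors of the edgeR log2 fold changes were derived from the fold change and its F statistic. Their 95% intervals used the residual degrees of freedom, 8 unpaired and 6 with the line, unlike the p-values, so the 2 can disagree. Counting intervals are exact binomial at 95%. Log2 CPM used a prior count of 2. Alternatives were DESeq2 1.42.0, its size factors, no filter, the study's fold threshold and leaving out each line or treatment. The same alternatives in the fit with the block were chosen after seeing the data. The run shared by Fgfr1 and Fgfr2 is not reported here.

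The genes and gene lists were chosen with earlier results of these data known. Named genes were the 10 genes, Met and Hgf, at most the 3 largest rises and falls per list in the combination against DMSO or with PD173074, and the most alike genes among those with a mean log2 CPM of at least 3.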

Additional observations from a re-analysis of the deposited data

Results flagged for a closer look

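The effect of FGFR inhibition on Fgfrl1 differed with and without Crizotinib in the fit with the line as a block. The departure from additivity was 0.933 on the log2 scale (edgeR adjusted p = 0.0292, 95% interval 0.342 to 1.52). With PD173074 against DMSO Fgfrl1 changed by -0.47 (A1005), -0.32 (A1129) and -0.01 (A1471) on the log2 scale, and in the combination against Crizotinib by 0.08, 0.76 and 1.06. The signs were the same in 3 of 3 lines, but 2 of these changes lay within counting error. The ratio with PD173074 in A1471 was 0.991 (counting interval 0.876 to 1.12). That of the combination to Crizotinib in A1005 was 1.06 (0.888 to 1.26). The unpaired fit did not call the difference (adjusted p = 0.939), and the call with the block was lost without A1129 and without A1471.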

How the results depend on the processing

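Over the alternatives to the unpaired fit, the replicate block among them, 253 values for single genes kept their direction and side of the threshold, 16 passed it only under the alternative, 7 only in the reported fit, and 6 turned sign. Of the values from the fit with the block 237 kept both, 5 passed only under the alternative, 41 only in the reported fit and 5 turned sign. Between lines these numbers were 129, 2, 7 and 3. The replicate block moved the number of FGF genes called from 0 to 3 in the combination against Crizotinib, 4 against DMSO, 3 against PD173074 and 1 for the departure from additivity, and the number over all genes from 0 to 296 with PD173074 against DMSO, from 1823 to 7389, from 1990 to 7578 and from 660 to 5506 in the combination against Crizotinib, DMSO and PD173074, and from 127 to 2241 for the departure. DESeq2 gave 27, 2860, 2948, 1449 and 403 genes in the same order, 1 with Crizotinib against DMSO, and 1 FGF gene in the combination against DMSO. Without the filter on low counts there were 1146, 1160 and 401 genes in the combination comparisons and 66 for the departure, and with a log2 fold change of at least 1.5 there were 741, 794 and 267. Leaving out each line gave 109 to 1835, 120 to 2021 and 60 to 627 genes, 0 for the departure, and 0 to 1, 0 to 2 and 0 to 1 FGF genes in the combination comparisons.

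With the block, under alternatives chosen after seeing the data, the FGF genes called ranged over 0 to 3 against Crizotinib, 1 to 3 against DMSO, 1 to 2 against PD173074 (1 in DESeq2) and 0 to 1 for the departure when a line was left out, and without the filter 1 was called with PD173074 against DMSO. In the full fit with the block 53.4%, 54.8%, 39.8% and 16.2% of all genes were called in the first 4 of these. Shares over all genes with a line left out are not given here. Between lines, leaving out a treatment gave 3 to 5 FGF genes (A1129 against A1005) and 1 to 4 (A1471 against A1129), where 57.8% and 45.9% of all genes were called in the full fit. The causes of these changes were not tested. Fgfr2 had no value without A1129, since it then had too few counts.

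Signs turned only for values past no threshold. With PD173074 against DMSO, Frs3 was 0.0127 with the block and -0.19 to 0.19 without a line, and Fgf2 was -0.18 with the block and -0.89 to 0.33 without a line. Without a line, Fgfr3 was -0.78 to 0.59 in the combination against Crizotinib and Fgfr1 was -0.27 to 0.12 in the combination against DMSO. Without the libraries of a treatment Fgfr1 was -0.0820 to 0.168 in A1129 against A1005, -0.10 to 0.0883 in A1471 against A1005 and -0.0800 to 0.0118 in A1471 against A1129. With the block and without a line, Frs3 was -0.20 to 0.24 and Fgf2 -1.01 to 0.10 with PD173074 against DMSO, where Fgf2 was 0.04 without A1129, Fgfr3 was -0.72 to 0.55 in the combination against Crizotinib and Fgfr1 was -0.27 to 0.12 in the combination against DMSO. The mean Fgfr1 share in A1005 was 99.34% from raw counts against 99.07% per kb. Depth limits Fgfr2, Fgfr4, Fgf7 and Fgf10 in all lines, and Fgfr3 and Fgf2 in A1471, where counts were near the floor of 3.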

Other observations

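With the line as a block, 1 of the 2 epithelial markers tested fell in the combination against DMSO (Krt18, a keratin, at -0.996 on the log2 scale, edgeR adjusted p = 0.000225), 1 of the 4 mesenchymal markers tested fell (Twist1, at -1.09, adjusted p = 2.76e-05) and 1 of the 2 leukocyte markers tested rose (Cd68, by 0.82, adjusted p = 0.00603), beside 26.2% of all genes called lower and 28.6% called higher. These markers are named after their values were seen. The other markers tested were not called. Mean Krt8 was 7.06 ± 6.88 CPM with DMSO and 12.8 ± 18.4 CPM with the combination (SD, n = 3). Between the same treatments mean Fn1 went from 748 ± 423 to 2333 ± 2458 CPM and Zeb1 from 65.3 to 77.9 CPM. Mean Vim went from 2890 to 2615 CPM and Ptprc from 4.62 to 5.82 CPM. Of the 5 epithelial markers, Cldn7 was at 0 in all libraries, and their summed level was 16.1 to 39.6 CPM with DMSO and 7.02 to 41.6 CPM with the combination. The 5 mesenchymal markers summed to 3137 to 4513 CPM with DMSO and 2408 to 8440 CPM with the combination. The 3 basal markers, of which Krt5 was at 0 throughout, summed to 0 to 4.06 CPM with DMSO and 0.754 to 5.56 CPM with the combination. The 3 leukocyte markers summed to 4.34 to 31.3 CPM with DMSO and 8.22 to 41.9 CPM with the combination. The 3 endothelial markers stayed at or below 0.627 CPM in sum. The 2 adipocyte markers stayed at or below 0.0716 CPM, with Adipoq at 0 in all libraries. Their part in the results on the FGF genes was not tested.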
